A study of Mus musculus with 12 samples.

Results

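The clustered protocadherins are 59 of the 24062 genes in the count table of retinal RNA from Pias3+/+ and Pias3-/- mice. They are the rows on chromosome 18 whose symbols begin with Pcdha, Pcdhb, Pcdhga, Pcdhgb or Pcdhgc followed by a member number or a c. The set was picked on a measured value, the lower expression of *Pcdhb9* in Pias3-/- retina at P21. The genotype differences at P21 are therefore given as a description without p-values, as is every comparison of *Pcdhb9* that uses the P21 libraries, and counts of called genes are printed there for scale only. The genotype difference at 18 months rests on libraries that the choice did not use.

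Whole retina was taken at postnatal day 21 (P21) and at 18 months, from wild-type mice (Pias3+/+) and from mice that lack *Pias3* in the germ line (Pias3-/-), both labelled C57Bl6/J. Each of the 4 groups had 3 libraries, and each library was made from 2 retinas. The Pias3-/- allele lacks exons 2 to 5 and arose when leaky Rx-Cre acted in an oocyte, so all cells of these mice carry it, and the number of backcrosses was not given. Mice of either sex were used. Fewer cells of a type and less RNA per cell cannot be told apart in RNA of whole retina.

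Clustered protocadherins are cell adhesion molecules that bind the same isoform on a facing membrane, and neurons use them to tell their own branches from those of other cells. A neuron switches on a few promoters of the alpha, beta and gamma clusters, largely at random, whereas the C-type isoforms at the ends of the alpha and gamma clusters are used more uniformly. An alpha or gamma transcript joins a variable exon, which encodes the extracellular and transmembrane parts, to constant exons shared within its cluster, and a beta gene is a variable exon alone. In the retina the gamma cluster is known for self-avoidance of starburst amacrine cell dendrites and for survival of inner retinal neurons.

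Totals ranged from 11607155 to 25622505 counts per library. Levels are given as CPM, counts scaled to the normalized library total, and a floor of 3 counts lay between 0.121 and 0.261 CPM, which covers counting error only. *Pias3* itself was lower in Pias3-/- retina, between 71.8 and 86.6 CPM against 113 to 141 CPM at P21, and between 52.5 and 60.8 CPM against 97.0 to 107 CPM at 18 months, with reads of exons outside the deletion still counted. The 5 rod markers summed to at least 35095 CPM, the 6 amacrine markers to at least 1115 CPM and the 7 ganglion cell markers to at least 765 CPM in each of the 12 libraries. At 18 months, replicate 2 of Pias3-/- retina held 4747 CPM of the lens gene *Cryaa*, while the remaining 5 libraries at 18 months held 2.67 to 32.5 CPM. The 3 Pias3+/+ libraries at 18 months had at least 21064 counts of *Xist* and at most 1 count of 4 Y-linked genes, whereas the 3 Pias3-/- libraries had at most 11 and at least 3167 counts, respectively. Genotype and sex cannot be told apart at 18 months, while each genotype at P21 held libraries of both kinds. The labels name no shared animal, litter or day for the replicates, and p-values measure the spread between these samples.

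The members lie on the plus strand of chromosome 18 of mm10 between 36930285 and 37841872. The 15 alpha genes come first, the 22 beta genes follow between 37264998 and 37521419, and the 22 gamma genes lie between 37661945 and 37841872. Each beta gene was counted on 1 exon that no other gene of the table shares. Alpha and gamma genes were counted on 4 exons, of which the variable exon is private. Excluding *Pcdha4* and *Pcdha4-g*, the private part was between 45.1% and 47.3% of the counted length in alpha and between 52.8% and 58.3% in gamma genes. *Pcdha4-g*, all of whose bases lie in exons of other genes, had 0 counts in the 12 libraries, and *Pcdha4*, with 52 private bases, had 9 counts in total, so no level was given for this pair. Levels of the other 57 members are given per kilobase (kb) of private exon. For alpha and gamma genes this assumes that reads in the shared exons were not counted, which the sources do not state. Of the 100-base words in *Pcdhb9* transcripts of GENCODE M21, 1.15% also occurred in another gene, most often *Pcdhb7*. This share was highest among beta genes for *Pcdhb21* and *Pcdhb22*, with 7.73% and 5.39%, so reads of these neighbours can be confused.

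At P21 in Pias3+/+ retina, the median level was 1.38 CPM per kb for 13 alpha genes, 3.15 CPM per kb for 22 beta genes and 3.67 CPM per kb for 22 gamma genes. Over the 12 libraries the highest mean levels were those of the C-type isoforms *Pcdhgc3* (19.2 CPM per kb) and *Pcdhgc4* (13.2 CPM per kb), followed in the gamma cluster by *Pcdhga4* (7.20 CPM per kb). In the alpha cluster, *Pcdhac2* reached 6.73 CPM per kb, ahead of *Pcdha12* (2.00 CPM per kb) and *Pcdhac1* (1.54 CPM per kb). *Pcdhac2* took between 31.0% and 38.3% of the alpha counts of a library. In the beta cluster, *Pcdhb17*, *Pcdhb9* and *Pcdhb20* had 5.72, 5.43 and 5.41 CPM per kb. *Pcdhb1* was the lowest, at no more than 12 counts per library, and had 0 counts in P21 Pias3-/- replicate 1, which allows up to 0.163 CPM.

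**Figure D1:**
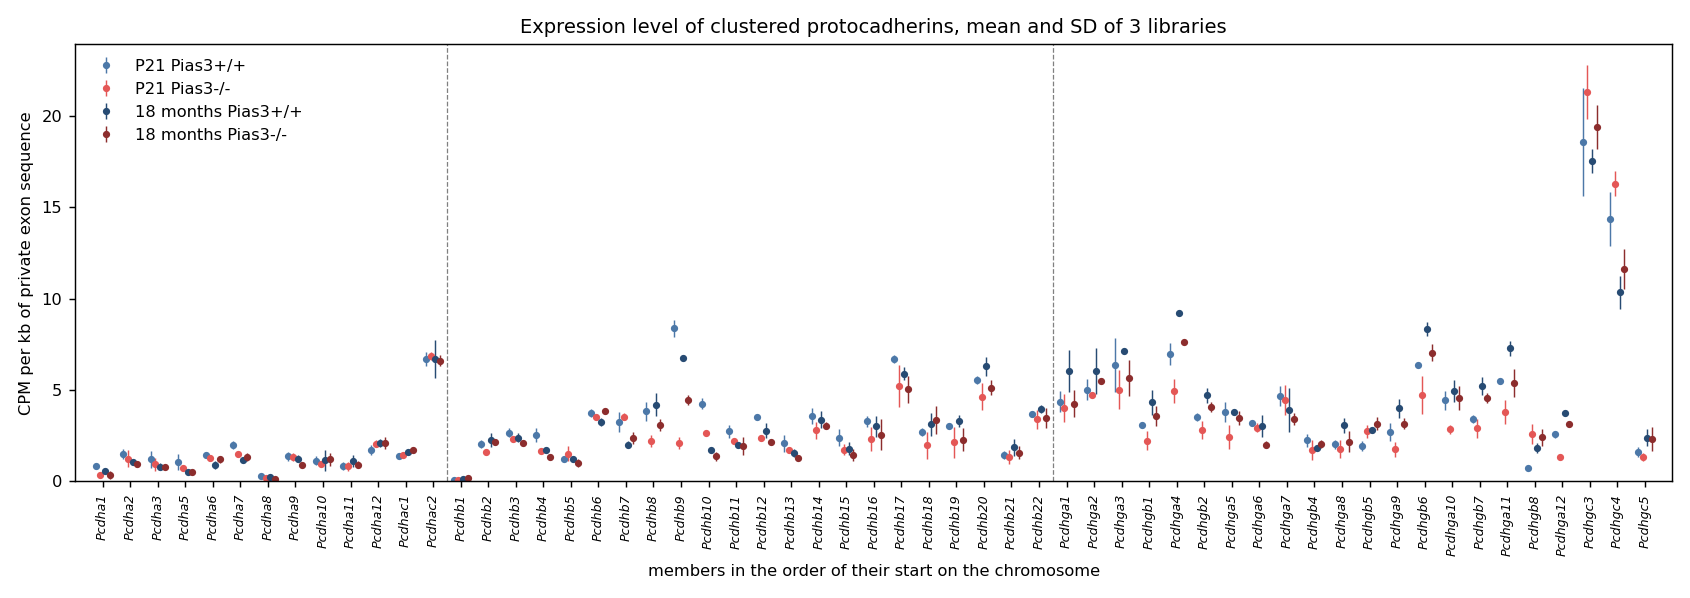
Mean expression of 57 clustered protocadherins in CPM per kb of private exon in the 4 groups, with bars for the SD of 3 libraries, in the order of their start on the chromosome and with dashed lines between the alpha, beta and gamma clusters. *Pcdhgc3* and *Pcdhgc4* stand above the other members in each group, and the points of *Pcdhb9* spread from 2.11 to 8.38 CPM per kb.

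*Pcdhb9* lies from 37400855 to 37403909. In P21 Pias3+/+ retina it had 478, 374 and 451 counts in replicates 1 to 3, or 26.8, 25.9 and 24.1 CPM. In P21 Pias3-/- retina it had 139, 96 and 131 counts, or 7.56, 6.09 and 5.68 CPM. The 3 Pias3-/- libraries were all below the 3 Pias3+/+ libraries, and the mean went from 25.6 ± 1.36 CPM to 6.44 ± 0.992 CPM (SD, n = 3 each). On the log2 scale the fold change was -2.0 (standard error 0.135). Among the 22 beta genes, *Pcdhb9* ranked 1 per kb in each P21 Pias3+/+ library and between 10 and 15 in the Pias3-/- libraries, where *Pcdhb17* ranked 1. It held on average 10.4% of beta counts in Pias3+/+ and 3.60% in Pias3-/- retina at this age.

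The beta genes on either side of *Pcdhb9* encode isoforms of the same build. *Pcdhb8*, which ends at 37357610, had 8.85, 10.2 and 7.86 CPM in P21 Pias3+/+ and 4.52, 4.89 and 5.98 CPM in P21 Pias3-/- libraries (log2 fold change -0.80, standard error 0.162). *Pcdhb10*, which starts at 37411674, had 11.4, 11.8 and 13.05 CPM against 7.62, 7.55 and 7.54 CPM (-0.68, standard error 0.107). For both genes, the Pias3-/- libraries were below the Pias3+/+ libraries. *Pcdhb7*, on the far side of *Pcdhb8*, had 9.69, 13.4 and 11.1 CPM in Pias3+/+ and 12.5, 13.2 and 11.7 CPM in Pias3-/- libraries, and the genotypes overlapped (0.12, standard error 0.139). *Pcdhb11*, on the far side of *Pcdhb10*, had 11.1, 9.96 and 8.61 CPM against 7.89, 7.68 and 8.19 CPM (-0.32, standard error 0.131). The difference in *Pcdhb9* was thus larger than those of its 4 neighbours, of which 3 were lower and *Pcdhb7* was not.

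**Figure D2:**
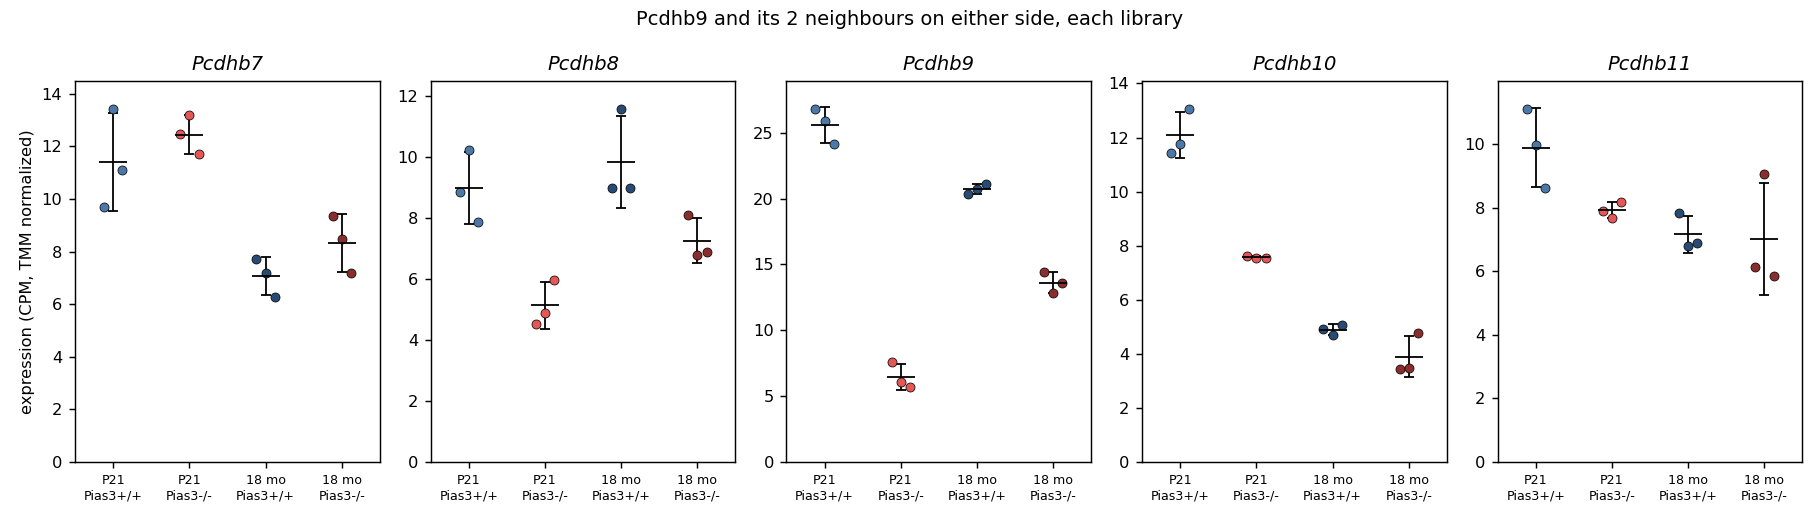
Expression of *Pcdhb9* and of its 2 neighbours on either side in CPM, 1 point per library, with the mean and SD of the 3 libraries of each group, on axes that start at 0 and differ between panels. *Pcdhb9* was near 6.44 CPM in P21 Pias3-/- retina and between 12.8 and 14.4 CPM in the 18-month Pias3-/- libraries, and *Pcdhb10* was lower at 18 months than at P21 in both genotypes.

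Genes were tested when their FPKM, a level scaled to library and gene length, reached 2 in at least 1 of the libraries compared. A member was called where its false discovery rate (FDR) was 0.05 or less and it changed 1.5-fold or more. FPKM counts the shared exons in the length, so 33 of 59 members entered the fit at P21: 1 of 15 alpha, 20 of 22 beta and 12 of 22 gamma genes. Of these, 28 were lower in Pias3-/- retina, with a median log2 fold change of -0.37, beside 0.00 for all 12109 genes tested. The medians were -0.37 for beta and -0.34 for gamma genes. The gamma median was between -0.48 and -0.22 when a library was omitted, nearest to 0 without Pias3-/- replicate 3 (-0.22) or Pias3+/+ replicate 2 (-0.23). The genotypes did not overlap for 16 members, all lower in Pias3-/- retina, beside 13.2% of all tested genes lower without overlap. The thresholds were met by *Pcdhb9* and *Pcdhb10*, lower, beside 0.619% of all tested genes, and by 0 members that were higher, beside 0.198%. *Pcdhb9* chose the set, and nothing is read from these counts. Of the 33 members, 7 reached the FPKM minimum in Pias3+/+ libraries only and 1, *Pcdhb5*, in Pias3-/- libraries only, and of the 25 that reached it in both genotypes 21 were lower. The number called was 1 without any of the Pias3+/+ replicates or Pias3-/- replicate 1, it was 9 without Pias3-/- replicate 2 and 3 without Pias3-/- replicate 3.

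With edgeR's filterByExpr in place of the FPKM minimum, 56 of 59 members were fitted at P21 and 47 were lower, with a median of -0.33. The calls were then 3 lower, beside 0.591% of genes, and 1 higher, beside 0.303%. The added genes were *Pcdhga12* and *Pcdhgb8*, neighbours near the end of the variable exons of the gamma cluster, which are named here after their values were seen. *Pcdhgb8* had 38, 23 and 33 counts in P21 Pias3+/+ libraries and 121, 122 and 116 counts in P21 Pias3-/- libraries, or 1.83 ± 0.275 and 6.45 ± 1.36 CPM (SD, n = 3 each). The value of 1.79 on the log2 scale (standard error 0.214) was the largest rise of the members fitted. *Pcdhga12* had 7.62, 7.12 and 8.23 CPM against 4.30, 3.81 and 3.99 CPM (-0.93, standard error 0.131). Of 13 alpha genes fitted, 10 were lower, with a median of -0.23, and *Pcdha1* had the largest difference, from 29, 30 and 43 counts to 14, 12 and 22 counts (-1.26, standard error 0.237). The 3 genes did not overlap between genotypes and went in different directions.

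The C-type isoforms overlapped between the genotypes at P21. *Pcdhac2* had 17.3, 16.2 and 18.2 CPM in Pias3+/+ and 18.2, 17.4 and 17.1 CPM in Pias3-/- libraries (log2 fold change 0.02, standard error 0.0953). *Pcdhgc3* had 48.6, 39.7 and 54.9 CPM against 52.2, 53.0 and 59.1 CPM (0.19, standard error 0.127). *Pcdhgc4* had 45.9, 37.4 and 41.9 CPM against 49.2, 45.2 and 47.5 CPM (0.17, standard error 0.1004). Overlap was also found for *Pcdhac1* (0.05, standard error 0.144) and *Pcdhgc5* (-0.27, standard error 0.186), which were below the FPKM minimum. In sum, *Pcdhgc3*, *Pcdhgc4* and *Pcdhgc5* took between 30.5% and 35.9% of gamma counts in P21 Pias3+/+ and between 37.2% and 45.3% in P21 Pias3-/- libraries.

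Markers of several cell types moved with genotype at P21. All 5 rod markers were lower in Pias3-/- retina, and their sum was between 35095 and 36444 CPM, against 47764 to 49993 CPM in Pias3+/+ retina. The 6 cone markers were all lower, with sums between 1412 and 1471 CPM against 1598 to 1633 CPM, and the 3 endothelial markers all higher, between 104 and 110 CPM against 85.1 to 91.3 CPM, both without overlap. The 7 ganglion cell markers summed to between 1146 and 1432 CPM against 1131 to 1265 CPM, and the 5 starburst amacrine markers to between 93.1 and 104 CPM against 102 to 104 CPM. The sum of the 6 pigment epithelium markers ranged from 36.0 to 213 CPM in Pias3-/- and from 197 to 259 CPM in Pias3+/+ libraries. The 5 lens markers summed to between 8.28 and 69.4 CPM in Pias3-/- and between 65.7 and 339 CPM in Pias3+/+ libraries. Of these lens markers, 3 were tested and all were lower in Pias3-/- retina, with a median log2 fold change of -2.20. The part of these cell types in the protocadherin values was not tested.

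**Figure D3:**
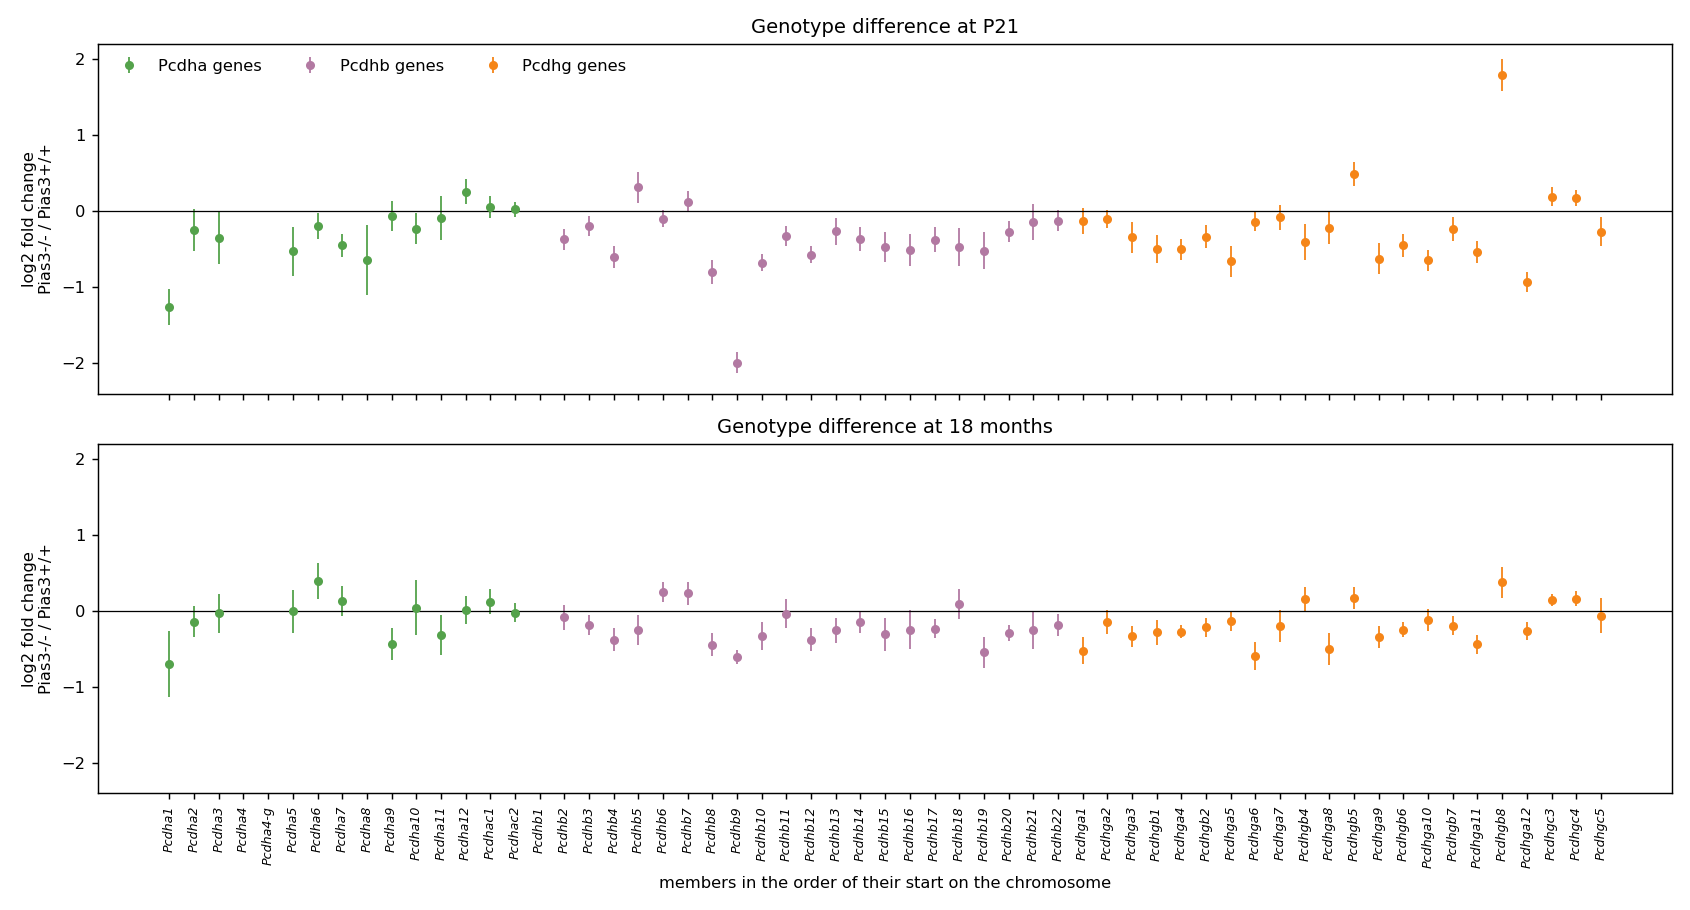
Log2 fold change of each fitted member between Pias3-/- and Pias3+/+ retina at P21 (top) and at 18 months (bottom), with bars for the standard error, from the fits with filterByExpr and in the order of the starts on the chromosome. *Pcdhb9* at -2.0 and *Pcdhgb8* at 1.79 are the farthest from 0 at P21, and at 18 months the values lie between -0.70 and 0.39.

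At 18 months, in libraries that played no part in the choice, *Pcdhb9* had 504, 355 and 242 counts in Pias3+/+ and 240, 265 and 288 counts in Pias3-/- retina. These were 20.4, 20.7 and 21.1 CPM against 14.4, 12.8 and 13.6 CPM, and the genotypes did not overlap. The log2 fold change was -0.61 (standard error 0.0953), with an FDR of 0.0614 in the quasi-likelihood test of edgeR over 12068 genes, so *Pcdhb9* was not called. An exact permutation test, 2-sided, gave p = 0.1, the smallest that 3 libraries against 3 allow. Omitting any of the 6 libraries, including that with lens RNA, gave values from -0.64 to -0.57 on the log2 scale, and the FDR was then between 0.128 and 0.373 by edgeR. The Wald test of DESeq2 gave an FDR of 0.00127 and the likelihood ratio test 0.00391, both of which called the gene. *Pcdhb9* ranked 1 among beta genes per kb in each 18-month Pias3+/+ library and 2 or 3 in the Pias3-/- libraries.

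The neighbours of *Pcdhb9* did not pass the test at 18 months. *Pcdhb8* had 8.97, 11.6 and 8.98 CPM in Pias3+/+ and 8.11, 6.78 and 6.89 CPM in Pias3-/- libraries, without overlap (log2 fold change -0.44, standard error 0.156, FDR 0.488 by edgeR). *Pcdhb10* was below the FPKM minimum, and with filterByExpr its log2 fold change was -0.32 (standard error 0.184) from 4.93, 4.67 and 5.06 CPM to 3.42, 3.49 and 4.77 CPM. *Pcdhb7* had 7.72, 7.19 and 6.28 CPM against 9.37, 8.47 and 7.18 CPM, with overlap (0.23, standard error 0.157). *Pcdhb11* had 7.84, 6.78 and 6.89 CPM against 6.12, 9.05 and 5.85 CPM, and its value of -0.03 (standard error 0.200) changed sign with some libraries left out.

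Over the clusters, 34 of 59 members were tested at 18 months (1 alpha, 17 beta and 16 gamma genes) and 29 were lower in Pias3-/- retina. The median log2 fold change was -0.22, beside 0.01 for all genes tested, with -0.23 for beta and -0.23 for gamma genes. Of the 34, 6 reached the FPKM minimum in Pias3+/+ libraries only, *Pcdhb15*, *Pcdhb21*, *Pcdhga5*, *Pcdhga7*, *Pcdhga9* and *Pcdhga12*, and of the 28 that reached it in both genotypes 23 were lower. In the quasi-likelihood test of edgeR, 0 members were called, beside 0.257% of all tested genes, and 1 member, *Pcdhb9*, was called by DESeq2 and by the likelihood ratio test. An unadjusted p under 0.05 was found for 12 members, all lower, beside 5.19% of all tested genes, and for 10 of the 28 that reached the FPKM minimum in both genotypes. They were *Pcdhb8*, *Pcdhb9*, *Pcdhb12*, *Pcdhb19* and *Pcdhb20* of the beta cluster and *Pcdhga1*, *Pcdhga3*, *Pcdhga4*, *Pcdhga9*, *Pcdhgb6*, *Pcdhga11* and *Pcdhga12* of the gamma cluster. The number of 12 fell with any library omitted, to between 4 and 10, and was 4 without Pias3+/+ replicate 2, 5 without Pias3+/+ replicate 1 and 7 without Pias3-/- replicate 3. After *Pcdhb9*, the lowest log2 fold changes among them were those of *Pcdhb19* (-0.55), *Pcdhga1* (-0.52), *Pcdhb8* (-0.44), *Pcdhga11* (-0.44) and *Pcdhb12* (-0.38). For 13 members the 3 Pias3-/- libraries were below the 3 Pias3+/+ libraries, beside 7.90% of all tested genes (11 of the 28), and for 1 member, *Pcdhb6* (0.25), they were above, beside 7.88%. With filterByExpr, 42 of 55 members were lower, with a median of -0.19, and the 12 alpha genes had a median of -0.01.

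Among the gamma genes at 18 months, *Pcdhga4* had 22.5, 21.8 and 22.6 CPM in Pias3+/+ and 18.6, 18.6 and 18.2 CPM in Pias3-/- libraries (log2 fold change -0.27, standard error 0.0855, FDR 0.457 by edgeR). *Pcdhb20* had 19.6, 21.7 and 23.0 CPM against 18.8, 15.98 and 17.6 CPM (-0.29, standard error 0.108, FDR 0.493 by edgeR). Neither gene overlapped between genotypes, and neither passed the test. *Pcdhb17* had 19.6, 20.4 and 18.0 CPM against 18.8, 16.8 and 13.97 CPM, with overlap (-0.23, standard error 0.130). The C-type *Pcdhgc3* (44.0, 47.0 and 44.2 against 53.0, 49.7 and 46.8 CPM) and *Pcdhgc4* (29.9, 32.8 and 27.5 against 37.3, 32.5 and 31.5 CPM) had log2 fold changes of 0.14 and 0.16 (standard errors 0.0787 and 0.101). *Pcdhac2* had 17.1, 19.9 and 14.6 CPM against 16.2, 17.8 and 16.9 CPM (-0.02, standard error 0.128). The share of *Pcdhgc3*, *Pcdhgc4* and *Pcdhgc5* in gamma counts was between 25.9% and 26.6% in Pias3+/+ and between 30.7% and 32.3% in Pias3-/- libraries, which did not overlap.

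**Figure D4:**
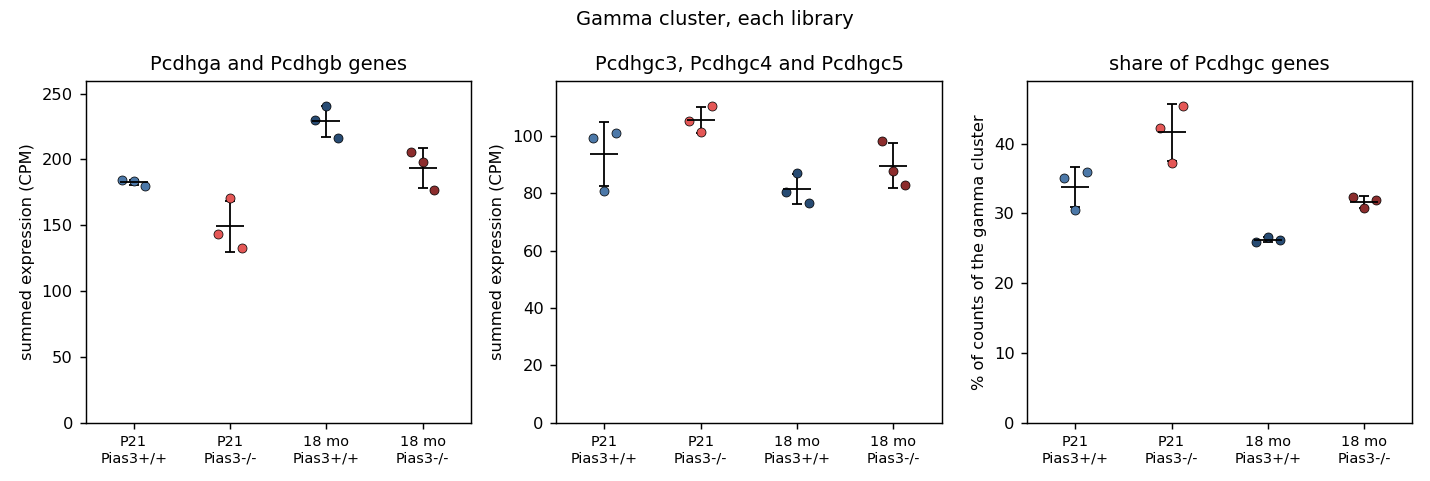
Summed expression of the *Pcdhga* and *Pcdhgb* genes (left) and of *Pcdhgc3*, *Pcdhgc4* and *Pcdhgc5* (middle) in CPM, and the share of the latter in the counts of the gamma cluster in percent (right), 1 point per library with the mean and SD of 3 libraries, on axes that start at 0. At each age the sum of *Pcdhga* and *Pcdhgb* genes was lower in Pias3-/- retina, without overlap, and the share of *Pcdhgc* genes was higher.

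The median over members was -0.26, with 29 of 34 lower, without the library that held lens RNA, and omitting any of the 6 libraries gave medians from -0.26 to -0.15. The beta median was -0.12, with 12 of 17 lower, without Pias3-/- replicate 3, and the gamma median was then -0.18. At this age the 5 rod markers summed to between 54071 and 63979 CPM in Pias3-/- and between 55976 and 57591 CPM in Pias3+/+ libraries, which overlapped. The sum of the 5 starburst amacrine markers was lower in Pias3-/- libraries without overlap, between 77.8 and 82.3 CPM against 84.4 to 93.0 CPM. Of the 5 markers, 3 were lower and 2 higher (median log2 fold change -0.01). In edgeR 0 of them passed the FDR and 0 had an unadjusted p under 0.05. The sum of the 5 Muller glia markers was higher without overlap, between 5168 and 5464 CPM against 4492 to 4835 CPM. Of these markers, 4 were higher and 1 lower (median 0.15), with 0 past the FDR in edgeR and 1 at an unadjusted p under 0.05. The 6 cone markers were all lower (median -0.17), with 0 past the FDR in edgeR. An unadjusted p under 0.05 in edgeR was found for 3 of them, beside 1119 of 12068 genes tested. The cone sums of 1324 to 1502 CPM overlapped those of 1489 to 1595 CPM in Pias3+/+ libraries. The part of these cell types in the protocadherin values was not tested.

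With age in Pias3+/+ retina, gamma genes were mostly higher and several beta genes lower at 18 months than at P21. *Pcdhb10* fell from 11.4, 11.8 and 13.05 CPM to 4.93, 4.67 and 5.06 CPM. This is a change of -1.30 on the log2 scale (standard error 0.125, FDR 5.41e-05 by edgeR). *Pcdhb7* fell from 9.69, 13.4 and 11.1 CPM to 7.72, 7.19 and 6.28 CPM (-0.66, standard error 0.149, FDR 0.00762 by edgeR). Both genes flank the interval that holds *Pcdhb8* and *Pcdhb9*. *Pcdhgb7* rose from 8.74, 7.68 and 8.23 CPM to 11.4, 13.8 and 12.8 CPM (0.63, standard error 0.122, FDR 0.00368 by edgeR). *Pcdhga9* rose from 6.22, 8.58 and 6.36 CPM to 10.3, 11.9 and 9.15 CPM (0.59, standard error 0.159, FDR 0.0180 by edgeR). The ages did not overlap for these 4 genes, which were the members called under the FPKM minimum. Of them, only *Pcdhb7* reached that minimum at both ages, and the others entered the test through the age where they were higher.

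Of 36 members other than *Pcdhb9* tested in Pias3+/+ retina, 9 were higher at an FDR of at most 0.05, all in the gamma cluster, beside 15.5% of all tested genes. Another 5 were lower, 4 beta genes and *Pcdhgc4*, beside 14.8% of all tested genes. The 4 called members compare with 7.99% of all tested genes. The median was 0.40 over the 16 gamma genes tested, of which 13 were higher, beside 0.01 for all genes. It was -0.15 over 19 beta genes other than *Pcdhb9*, of which 12 were lower. The filter weighs on these counts, since 5 of the 16 gamma genes, *Pcdhgb1*, *Pcdhgb2*, *Pcdhga9*, *Pcdhgb7* and *Pcdhga12*, reached the FPKM minimum at 18 months only, and *Pcdhb4*, *Pcdhb10* and *Pcdhb13* at P21 only. Of the 11 gamma genes that reached it at both ages, 8 were higher, 4 of them past the FDR. With filterByExpr, which fitted all 22 gamma genes, 16 were higher, 13 of them past the FDR beside 14.4% of genes in that fit, with a median of 0.41. Smaller changes that passed the FDR in the gamma cluster were those of *Pcdhga1*, *Pcdhgb1*, *Pcdhga4*, *Pcdhgb2*, *Pcdhgb6*, *Pcdhga11* and *Pcdhga12*, between 0.39 and 0.55. In the beta cluster they were *Pcdhb4* (-0.56) and *Pcdhb11* (-0.44). *Pcdhb9*, given as a description, was at 26.8, 25.9 and 24.1 CPM at P21 and at 20.4, 20.7 and 21.1 CPM at 18 months. With filterByExpr, 10 of 56 members were called, beside 10.8% of genes, among them *Pcdha5* (-0.98), *Pcdha6* (-0.65) and *Pcdha7* (-0.73), and *Pcdhgb8* (1.34) from 1.83 ± 0.275 to 4.62 ± 0.687 CPM (SD, n = 3 each).

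Omitting any of the 6 libraries left between 2 and 7 members called, the fewest without 18-month Pias3+/+ replicate 2 and the most without 18-month Pias3+/+ replicate 3. The call of *Pcdhb10* was kept in all 6 fits. That of *Pcdhb7* was lost without P21 replicate 2 (-0.53), and that of *Pcdhgb7* without P21 replicate 2 (0.58) or 18-month replicate 2 (0.56). *Pcdhga9* lost its call without P21 replicate 1 (FDR 0.0716 by edgeR), P21 replicate 3 (0.0637), 18-month replicate 1 (0.0521) or 18-month replicate 2 (0.0773). P21 replicate 2 was the only Pias3+/+ library with more than 1 count of the Y-linked genes, and without it 10 gamma genes were higher at an FDR of at most 0.05, with a gamma median of 0.39. That number was 5 without P21 replicate 3 or 18-month replicate 1 and 6 without 18-month replicate 2, and the gamma median stayed between 0.37 and 0.42 over the 6 fits.

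In Pias3-/- retina, whose libraries are not shared with the comparison above, 31 members were tested. *Pcdhgb1*, *Pcdhgb2*, *Pcdhga5*, *Pcdhga10*, *Pcdhgb7* and *Pcdhb2* reached the FPKM minimum at 18 months only, and *Pcdhb10* at P21 only. *Pcdhb10* fell from 7.62, 7.55 and 7.54 CPM to 3.42, 3.49 and 4.77 CPM (log2 fold change -0.95, standard error 0.176, FDR 0.0165 by edgeR). *Pcdhga10* rose from 6.80, 7.55 and 6.37 CPM to 12.9, 10.5 and 9.91 CPM (0.69, standard error 0.153, FDR 0.0277 by edgeR). *Pcdhgb7* rose from 8.49, 6.47 and 6.11 CPM to 11.3, 11.5 and 10.3 CPM (0.66, standard error 0.163, FDR 0.0379 by edgeR). The ages did not overlap for these genes, nor for *Pcdhga4*, which rose from 11.6, 13.8 and 10.6 CPM to 18.6, 18.6 and 18.2 CPM (0.63, standard error 0.127, FDR 0.0210 by edgeR). *Pcdhb9*, given as a description, was at 7.56, 6.09 and 5.68 CPM at P21 and at 14.4, 12.8 and 13.6 CPM at 18 months (1.09, standard error 0.148).

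*Pcdhb10*, *Pcdhga4*, *Pcdhga10* and *Pcdhgb7* were the 4 called of 30 members other than *Pcdhb9*, beside 8.10% of all tested genes. Of these 4, only *Pcdhga4* reached the FPKM minimum at both ages, and the others entered the test through the age where they were higher. At an FDR of at most 0.05, 3 were higher, beside 7.47% of all tested genes, and 3 were lower, beside 6.97%. The lower genes were *Pcdhb10*, *Pcdhb7* (-0.57, FDR 0.0393 by edgeR) and *Pcdhgc4* (-0.48, FDR 0.0210 by edgeR). The median was 0.52 over 14 gamma genes, of which 11 were higher, and 0.097 over 15 beta genes other than *Pcdhb9*, of which 9 were higher. With *Pcdhb9* counted, the beta median went from 0.12 to -0.057, with 9 of 16 lower, without P21 replicate 3 and to -0.0099, with 8 of 16 lower, without 18-month replicate 2. Of the 9 gamma genes that reached the FPKM minimum at both ages, 6 were higher, 1 of them past the FDR, and with filterByExpr 17 of 22 were higher, 5 of them past the FDR beside 7.49% of genes in that fit, with a median of 0.42. With filterByExpr, 6 of 54 members other than *Pcdhb9* were called, beside 9.37% of genes, and these included *Pcdhga12* (1.22) and *Pcdhga9* (0.86, FDR 0.0294 by edgeR). *Pcdhga12* went from 4.30, 3.81 and 3.99 CPM to 8.77, 9.44 and 9.63 CPM. The number called, 5 with *Pcdhb9* counted, was 1 without P21 replicate 1, 18-month replicate 1 or 18-month replicate 2 (the library with lens RNA), 3 without P21 replicate 3 or 18-month replicate 3, and 7 without P21 replicate 2. The call of *Pcdhgb7* was lost whichever library was omitted, with an FDR between 0.0511 and 0.128 by edgeR. *Pcdhga4* lost its call in 5 of the 6 fits and kept it without P21 replicate 2, with an FDR between 0.0149 and 0.102 over the 6 by edgeR. *Pcdhga10* lost its call without P21 replicates 1 or 3 or 18-month replicates 1 or 2 (FDR between 0.0368 and 0.115 over the 6 by edgeR), and *Pcdhb10* without P21 replicate 1 or 18-month replicates 1 or 2 (between 0.0194 and 0.0796). For *Pcdhb7* and *Pcdhgc4* the FDR ranged up to 0.139 and 0.108. P21 replicate 3 was the only Pias3-/- library with more than 18 counts of *Xist*, and without it the gamma median was 0.42 with 1 gamma gene higher past the FDR.

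**Figure D5:**
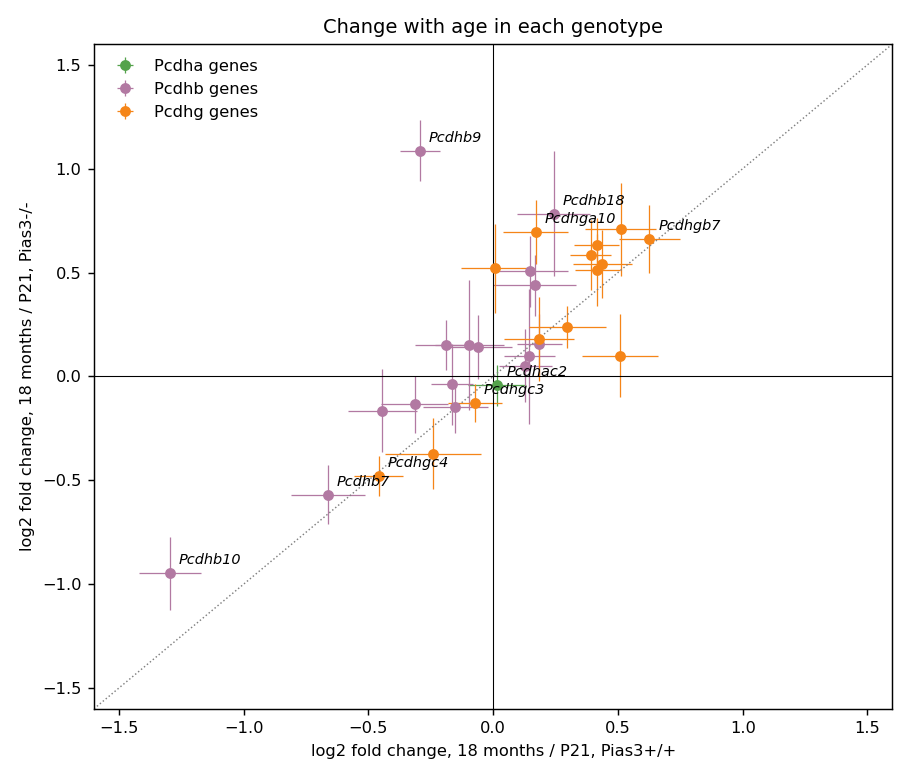
Log2 fold change between 18 months and P21 in Pias3+/+ retina (horizontal) and in Pias3-/- retina (vertical) for the 31 members tested in both, with bars for the standard errors and a dotted line where both are equal. The 14 gamma genes lie on the same side of 0 in both genotypes, *Pcdhb10* and *Pcdhb7* are lowest in both, and *Pcdhb9* is at -0.29 and 1.09.

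Of the 30 members other than *Pcdhb9* tested in each, 26 had log2 fold changes of the same sign with age (86.7%), beside 78.1% of 11942 genes. These were the 14 gamma genes and 12 beta genes. An FDR of at most 0.05 in both was found for *Pcdhb7*, *Pcdhb10* and *Pcdhgc4*, lower at 18 months, and for *Pcdhga4* and *Pcdhgb7*, higher. These 5 are 45.5% of the 11 members past the FDR in Pias3+/+ and 83.3% of the 6 past it in Pias3-/- retina, among the 30, beside 36.3% and 76.1% over all genes tested in both. *Pcdhb10* and *Pcdhgb7* reached the FPKM minimum at 1 age only. Of the 23 members that reached it at both ages in both genotypes, 19 had the same sign. Among these 23, *Pcdhb7*, *Pcdhga4* and *Pcdhgc4* passed the FDR in both, 3 out of 7 in Pias3+/+ and 3 in Pias3-/- retina. *Pcdhb9* went in opposite directions, as described above.

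The C-type isoforms differed from each other in their course. *Pcdhgc4* went from 45.9, 37.4 and 41.9 CPM to 29.9, 32.8 and 27.5 CPM in Pias3+/+ retina (-0.46, standard error 0.0976, FDR 0.00578 by edgeR) and from 49.2, 45.2 and 47.5 CPM to 37.3, 32.5 and 31.5 CPM in Pias3-/- retina. *Pcdhgc3* had log2 fold changes of -0.07 (standard error 0.108) and -0.13 (standard error 0.0918), and *Pcdhac2* of 0.02 (standard error 0.117) and -0.04 (standard error 0.0989), with overlap between the ages. *Pcdhgc5*, fitted with filterByExpr, had 4.88, 3.53 and 4.06 CPM at P21 and 6.50, 7.30 and 4.88 CPM at 18 months in Pias3+/+ retina (0.60, standard error 0.178, FDR 0.0254 by edgeR). In Pias3-/- retina it had 3.92, 2.92 and 3.55 CPM and 7.87, 5.66 and 4.58 CPM (0.81, standard error 0.245, FDR 0.0662 by edgeR). *Pcdhac1* was at 3.42, 3.18 and 3.58 CPM and at 3.999, 3.97 and 3.66 CPM in Pias3+/+ retina, which did not pass the test (0.20, standard error 0.153). In Pias3-/- retina it was at 3.32, 3.74 and 3.55 CPM and at 4.08, 4.55 and 4.06 CPM, where 0 alpha genes passed the FDR. The ages did not overlap for *Pcdhac1* in either genotype. The sum of *Pcdhga* and *Pcdhgb* genes was between 180 and 184 CPM at P21 and between 216 and 240 CPM at 18 months in Pias3+/+, and between 133 and 171 CPM and between 177 and 206 CPM in Pias3-/- retina.

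Markers of inner retinal neurons also moved with age. The 7 ganglion cell markers were all lower at 18 months in both genotypes, with a sum between 1131 and 1265 CPM at P21 and between 800 and 922 CPM at 18 months in Pias3+/+, and between 1146 and 1432 CPM and between 765 and 1021 CPM in Pias3-/- retina. The 6 amacrine markers were all lower in Pias3+/+ retina (median -0.27) and 5 were lower in Pias3-/- retina (median -0.18). The 5 starburst markers summed to between 102 and 104 CPM at P21 and between 84.4 and 93.0 CPM at 18 months in Pias3+/+, and to between 93.1 and 104 CPM and between 77.8 and 82.3 CPM in Pias3-/- retina, with 2 of 5 lower past the FDR in each by edgeR, beside 14.8% and 6.97% of all tested genes. The 4 horizontal cell markers had sums between 137 and 153 CPM at P21 and between 81.2 and 97.7 CPM at 18 months in Pias3+/+ retina. In Pias3-/- retina the sums were between 128 and 138 CPM and between 75.4 and 83.4 CPM. Of these markers, 1 was tested in each genotype and was called lower (-0.80 and -0.81). Among all tested genes, 519 of 12109 and 431 of 12287 were called lower. In Pias3+/+ retina 4 of 4 tested pigment epithelium markers and 3 of 3 tested lens markers were lower past the FDR by edgeR, with medians of -1.505 and -3.99, beside the same 14.8%. In Pias3-/- retina 3 of 5 tested pigment epithelium markers were lower and 2 higher (median -0.34). There 5 of 5 tested lens markers were higher (median 5.66), with the lens RNA of 18-month replicate 2 counted, and 0 of either list passed the FDR. Of 3 endothelial markers, 2 were lower and 1 higher past the FDR in Pias3+/+ retina, beside 14.8% and 15.5% of all tested genes. In Pias3-/- retina 2 were lower past the FDR, beside 6.97%. The sum of the 5 rod markers was higher at 18 months without overlap in both genotypes. In Pias3+/+ retina it was between 55976 and 57591 CPM against 47764 to 49993 CPM. In Pias3-/- retina it was between 54071 and 63979 CPM against 35095 to 36444 CPM. Of the 5 rod markers, 4 were higher and 1 lower in Pias3+/+ retina, and 5 were higher in Pias3-/- retina. The part of these cell types in the protocadherin values was not tested.

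The genotype difference was also compared between the ages in 1 fit of the 12 libraries, and *Pcdhb9* is again a description there. Of 37 members, *Pcdhb9* alone was past the FDR, beside 0.209% of 12448 genes, and nothing is read from it. The other members had differences between -0.40 and 0.66 on the log2 scale and did not pass the FDR in edgeR.

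Genes beside the clusters were compared in the same way. These 12 genes are 5 on each side and *Slc25a2* and *Taf7* between the beta and gamma clusters, and 7 were tested. *Hars* and *Hars2*, which encode histidyl-tRNA synthetases, were at 0.30 and 0.03 at P21 on the log2 scale, and at 0.11 and -0.04 at 18 months. *Taf7*, a subunit of the general transcription factor TFIID, had 0.24 and 0.03, and *Hdac3*, a histone deacetylase, 0.04 and 0.095. At 18 months 0 of 7 passed the FDR and 0 had an unadjusted p under 0.05 in edgeR, and the median was 0.06. With age in Pias3+/+ retina, *Hdac3* fell (-0.39, FDR 0.00477 by edgeR) and the gene listed as *Diap1* rose (0.34, FDR 0.0169 by edgeR). These were the 2 of 7 past the FDR, beside 14.8% lower and 15.5% higher of all tested genes. In Pias3-/- retina 6 of 7 were lower with age (median -0.25), beside 5914 of 12287 genes, and 1 was lower past the FDR, beside 6.97%.

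Of 18 genes known to act on protocadherin promoter choice, such as CTCF, cohesin subunits and DNA methyltransferases, 16 were tested. At 18 months 14 of them were lower in Pias3-/- retina (median -0.17), beside 5638 of 12068 genes tested. In edgeR 0 of the 16 passed the FDR and 4 had an unadjusted p under 0.05, beside 1119 of 12068 genes. At P21 13 were lower (median -0.17), beside 6035 of 12109 genes. With age in Pias3+/+ retina, 8 rose and 1 fell at an FDR of at most 0.05, beside 15.5% and 14.8% of all tested genes. In Pias3-/- retina 2 rose and 1 fell, beside 7.47% and 6.97%. The gene that fell in both was *Dnmt3a*, a de novo DNA methyltransferase, with -0.88 in Pias3+/+ and -0.77 in Pias3-/- retina (FDR 0.00855 in the latter by edgeR). *Nipbl*, which loads cohesin, rose by 0.42 in Pias3+/+ retina (FDR 0.00296 by edgeR), and *Smc1a*, a cohesin subunit, by 0.38 and 0.51 in Pias3+/+ and Pias3-/- retina. *Ctcf* itself had 0.14 and 0.15 and did not pass the test.

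Of 18 genes for partners and processing of protocadherin proteins, 18 were tested between genotypes at 18 months, with a median of 0.05. In edgeR 0 passed the FDR and 2 had an unadjusted p under 0.05, beside 1119 of 12068 genes. At P21 *Ptk2b*, a kinase bound by protocadherin cytoplasmic domains, had a log2 fold change of 0.91. *Adam10*, the protease that sheds their ectodomains, had -0.08 at P21 and -0.09 at 18 months. With age, 4 of 17 fell in Pias3+/+ and 2 of 18 in Pias3-/- retina at an FDR of at most 0.05, beside 14.8% and 6.97% of all tested genes, and *Fyn*, a Src family kinase, fell in both (-0.37 and -0.60).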

How the data were processed

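RNA of 12 retinal samples was sequenced as stranded paired-end libraries. Per the labels and the study's methods, TopHat2 2.1.1 was used by the authors to align reads to mm10 and featureCounts to assign them to genes. The deposited values are raw counts. How reads in exons shared by several genes were treated is not given in the sources used here. The deposited tables of the authors' own comparisons hold fold changes, FDR values and group means and were not used. The counts were fitted in edgeR 4.0.16 (R 4.3.3), using TMM normalization and the quasi-likelihood test (6 libraries per comparison, 12 for the interaction, no covariate) and Benjamini-Hochberg adjustment over all tested genes. CPM are scaled to TMM-normalized totals over 12 libraries. Exon structure and 100-base words came from GENCODE M21. The procedure was tested on simulated data. Alternatives were library size alone, DESeq2 1.42.0 and the size factors it estimates, the likelihood ratio test, other filters and thresholds, a replicate block, 12 libraries in 1 fit and leaving out each library. An FPKM filter on private exon length and lowess corrections (30% span) for length and GC content were chosen after seeing the data. Values in every library are given for *Pcdhb9*, 2 members on either side, up to 3 of the most expressed per cluster, the C-type isoforms and members called in other comparisons. The members, the gene lists and these rules were chosen with earlier results of these data known. Sequences of the members are not reported here.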

Additional observations from a re-analysis of the deposited data

Results flagged for a closer look

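The genotype difference of *Pcdhb9* at 18 months minus that at P21 was 1.38 on the log2 scale, which is where the effect of the same contrast differed between the ages in the fit of 12 libraries. It contains the P21 values that chose the gene and is a description. Omitting any of the 12 libraries gave values from 1.29 to 1.51, and the largest value was that without P21 Pias3-/- replicate 1.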

How the results depend on the processing

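The number of members called at P21 (2) was 1 with library size alone or an FDR of 0.01, 4 with no filter, with filterByExpr or with the FPKM filter on private exon length, 5 with the DESeq2 Wald test or the likelihood ratio test, 6 with all 12 libraries in 1 fit, and from 1 to 9 when a library was omitted. At 18 months (0) it was 1 with the DESeq2 Wald test, the likelihood ratio test and the fit of 12 libraries, which takes in the P21 values that chose *Pcdhb9*, and 0 when a library was omitted. With age in Pias3+/+ retina (4) it was 10 with no filter or filterByExpr, 8 with the filter on private length, 15 with no fold change cutoff, and from 2 to 7 when a library was omitted. With age in Pias3-/- retina (5) it was 9 in the fit of 12 libraries, 1 at an FDR of 0.01, and from 1 to 7 when a library was omitted. For these counts the cause was not tested beyond the number of genes or libraries that a setting takes in. *Pcdhb11* at 18 months was between -0.28 and 0.090 when a library was omitted, and turned positive without Pias3+/+ replicate 1 (0.04), Pias3-/- replicate 1 (0.06) or Pias3-/- replicate 3 (0.090). A replicate block moved the number called with age in Pias3-/- retina to 8 and left the other 4 counts at 2, 0, 4 and 1. Same-numbered libraries correlated between -0.25 and 0.59 about their group means at P21 and between -0.10 and 0.39 at 18 months, so the numbers are not taken to pair the samples, and 2 of 3 numbers correlated best with their own in each comparison. With library size alone, the median of all genes with age in Pias3-/- retina moved from 0.01 to -0.11, and that of beta members from 0.12 to -0.00. Corrected for gene length, which correlated with the log2 fold change of all genes at -0.35 at P21 and -0.39 at 18 months (Spearman, across genes, which are not independent replicates), the member medians were -0.36 and -0.20. Corrected for GC content they were -0.36 and -0.22. Counts of fitted alpha genes went down to 4 per library, in *Pcdha8*.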

Other observations

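Protocadherins outside the clusters are encoded on other chromosomes or elsewhere and act in cell adhesion and synapse formation. Of 13 such genes, 10 were tested between genotypes at 18 months, with a median log2 fold change of -0.09. In edgeR 0 passed the FDR and 1 had an unadjusted p under 0.05, beside 1119 of 12068 genes. With age in Pias3+/+ retina, 6 of 11 passed the FDR, 5 lower beside 14.8% and 1 higher beside 15.5% of all tested genes, among them *Pcdh20*, which fell by 0.70, *Pcdh8*, which fell by 0.52, and *Pcdh15*, a gene of photoreceptor calyceal processes and hair cell tip links, which rose by 0.48. *Pcdh20* also fell in Pias3-/- retina, by 0.83 (FDR 0.0195 by edgeR). *Cdhr1*, a protocadherin of photoreceptor outer segments, rose by 0.80 in Pias3-/- retina (FDR 0.00648 by edgeR) and had 0.18 in Pias3+/+ retina.

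Of 14 genes for cell recognition in the inner retina, 12 were tested. At P21 *Dscaml1* and *Sdk2*, immunoglobulin superfamily adhesion molecules that place bipolar and amacrine cell processes, had log2 fold changes of -1.18 and -0.87, and 10 of 12 were lower in Pias3-/- retina. At 18 months their values were -0.06 and 0.08. In edgeR 0 of 12 passed the FDR and 1 had an unadjusted p under 0.05, beside 1119 of 12068 genes. With age in Pias3-/- retina, *Dscaml1* and *Sdk2* rose by 1.13 and 0.93, and in Pias3+/+ retina their values were 0.02 and -0.02.

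Replicate 3 was the lowest of its group for 24 of 37 members in P21 Pias3-/-, for 24 of 37 in 18-month Pias3-/- and for 22 of 37 in 18-month Pias3+/+ retina, beside 42.0%, 37.2% and 40.5% of 12448 genes. In P21 Pias3+/+ retina it was the lowest for 13 of 37 members, beside 37.6% of genes. *Pcdhb18*, at 10.8, 13.1 and 5.98 CPM in P21 Pias3-/- retina, is an example chosen after its values were seen.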
